A study of Homo sapiens with 60 samples.

Results

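Guibi-tang is an herbal formula and Aucklandiae Radix, a dried root, is 1 of its constituent herbs. The comparison described here sets 3 libraries of HT29 cells given Guibi-tang at 500 µg/mL against 2 libraries of the same cells given Aucklandiae Radix at 74 µg/mL, together 5 of the 60 libraries of the series, chosen by extract and dose and not by any measured value. HT29 is a human line from a colorectal adenocarcinoma. The extracts were made with ethanol, cells were harvested after 24 h, and RNA was profiled by sequencing. The library names place the extracts in different sets, 13 for Guibi-tang and 11 for Aucklandiae Radix. For that reason each extract's lowest dose from the same set was used as a measure of what separates the extracts and sets before a dose step: 3 libraries of Guibi-tang at 20 µg/mL and 2 of Aucklandiae Radix at 14.8 µg/mL. Guibi-tang at 100 µg/mL (3 libraries), Aucklandiae Radix at 370 µg/mL (2 libraries) and the vehicle (3 libraries of a set of their own, labelled 0.1% DMSO per sample although the design text gives 2%) serve as further levels. By the rule of the design text 370 µg/mL is the herb's IC20, the concentration at 20% inhibition of a readout that the text does not name, so 74 µg/mL is a 5-fold dilution of it, while 500 µg/mL is the top dose set for extracts with no lower IC20. The herb dose is 14.8% of the formula dose by mass. The share of Aucklandiae Radix in the formula extract is not given in the sources used here, so the doses are not matched for herb content. The low doses are also treatments with extract, so a difference between them can reflect extract as well as set. In a direct comparison of these groups, extract, dose and library set cannot be told apart. Another herb of set 11, Polygalae Radix at 15.2, 76 and 380 µg/mL (2 libraries a dose), is set beside the results near the end.

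The 10 libraries of the 4 groups held 20111060 to 28573582 expected counts, with 20111060 to 22528513 in Guibi-tang 500 µg/mL and 25143794 to 25573890 in Aucklandiae Radix 74 µg/mL. Mitochondrial genes took 7.74% to 8.47% of counts in Guibi-tang 500 µg/mL, 9.50% to 9.61% in Aucklandiae Radix 74 µg/mL, 8.82% to 11.5% in Guibi-tang 20 µg/mL and 9.82% to 11.0% in Aucklandiae Radix 14.8 µg/mL, and their part in the results was not tested. Of 10 colon epithelium markers 9 were above 1 CPM (counts scaled by library total and TMM factors, as a rate per 1e6) in each of the 4 groups, and the markers summed to 11820 to 12720 CPM after Guibi-tang 500 µg/mL and 12020 to 12210 CPM after Aucklandiae Radix 74 µg/mL. Lists of 6 fibroblast, 6 blood and 5 hepatocyte markers each summed to at most 4.16 CPM in every library of the 4 groups, with up to 3 members of a list at 0 throughout a group. Replicate pairs of Guibi-tang 20 µg/mL, the base of every Guibi-tang step, differed by a chi-square over degrees of freedom of 9.70 to 21.6, and those of the other three groups by 2.16 to 4.43; without any one of its libraries the Guibi-tang step called 2655 to 2726 genes. Whether the replicates were separate cultures is not stated, so the p-values reflect only how far these libraries spread, a spread that may be technical. One library of another extract, Saposhnikoviae Radix 20 µg/mL replicate 2, stands apart from the rest of the series and was left out of the fit.

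Many of the genes below belong to 3 systems. NRF2 is a transcription factor that is degraded in resting cells and stabilised when reactive compounds modify its inhibitor KEAP1; it then switches on genes that make glutathione and NADPH, reduce carbonyls and quinones, and handle heme and iron. The aryl hydrocarbon receptor (AHR) is a ligand-activated factor that binds plant compounds and planar aromatic pollutants and switches on the CYP1 monooxygenases and TIPARP, an enzyme that limits AHR in return. Cholesterol synthesis is driven by SREBP2, which INSIG1 holds in the endoplasmic reticulum when sterols suffice.

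Few genes passed the test between the formula at 500 µg/mL and the herb at 74 µg/mL. Most of those differed by less than 1.5-fold. The carbonyl reductases AKR1C2 and AKR1B10 and the heme-degrading HMOX1 were higher with the formula, as were the AHR targets CYP1A1, CYP1B1 and TIPARP, whereas cholesterol-synthesis genes, the acetate-activating enzyme ACSS2 and the epithelial oxidase NOX1 were lower. Of 16978 genes tested, 399 differed between Guibi-tang 500 µg/mL and Aucklandiae Radix 74 µg/mL (2.35%; quasi-likelihood test of edgeR, called where the Benjamini-Hochberg adjusted p was under 0.05), 208 of them higher with Guibi-tang (1.23%) and 191 lower (1.12%). Only 61 differed by at least 1.5-fold (0.359%), and 17 by at least 2-fold. The libraries of both groups did not overlap for any of the 399, which were chosen by this difference, against 34.9% of all genes tested. The same pair of extracts differed at the low doses in 3 genes (0.0177%). An unadjusted p under 0.05 (edgeR) was found for 589 genes at the low doses and 2158 at the higher doses.

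Each of the 399 calls was then set against the low doses by testing the difference of the dose steps, that is Guibi-tang 500 minus 20 µg/mL less Aucklandiae Radix 74 minus 14.8 µg/mL. That test passed for 165 genes (0.972%), and 150 of the 399 passed it in the direction of their difference (0.883% of genes tested), 78 higher and 72 lower with Guibi-tang. These 150 are called dose-supported below, a name for having passed both tests. The step difference is the higher-dose difference less the low-dose one, so both tests share the higher-dose libraries. Agreement in sign is therefore largely built in. The other 249 had a step difference of the same sign that did not pass. None of the 399 was called in the same direction at low dose. The 3 genes called at low dose, AKR1C2, AKR1B10 and ALDH3A1, were lower in Guibi-tang 20 µg/mL than in Aucklandiae Radix 14.8 µg/mL. They were higher in Guibi-tang 500 µg/mL than in Aucklandiae Radix 74 µg/mL. Their step differences therefore exceed their differences at the higher doses. Over the 399 genes the median absolute difference was 0.32 (log2) at the higher doses and 0.05 at the low doses. These genes were chosen by the former difference, so a larger median there follows at least in part from the choice. Over all genes tested the medians were 0.10 and 0.07. Of the 249, 13 had a low-dose difference of at least 0.5 times their difference at the higher doses, among them TRIB2, a pseudokinase, and ST3GAL4, a sialyltransferase, both named after their values were seen.

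**Figure D1:**
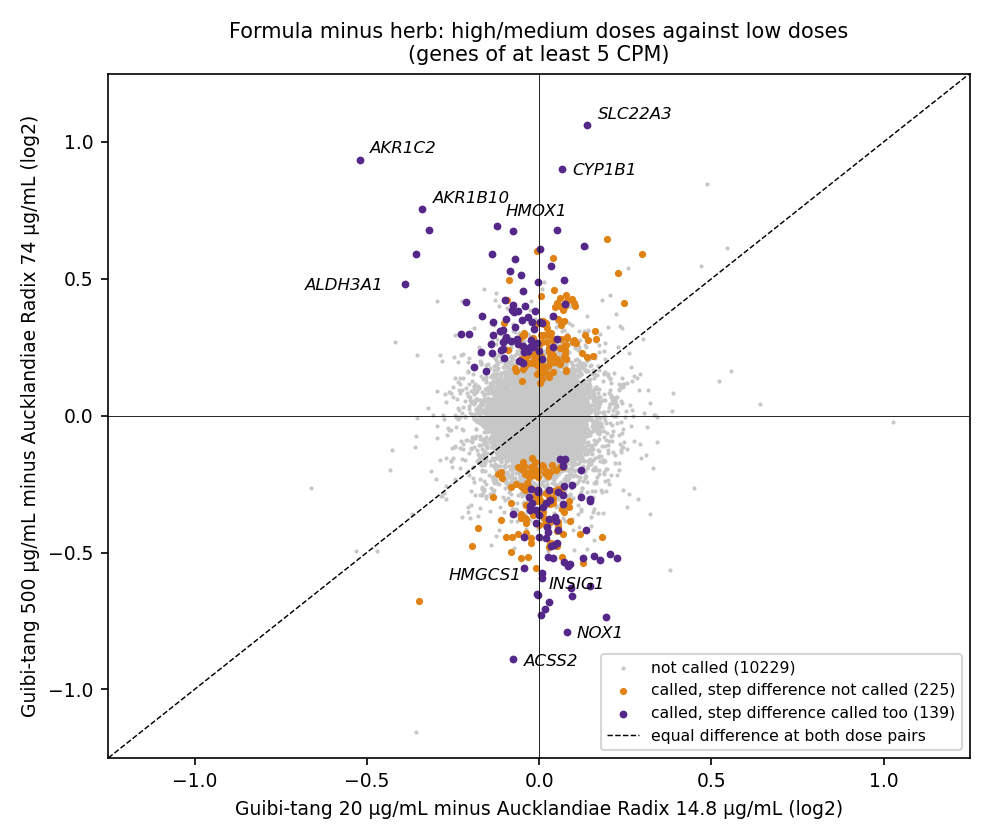
Difference between the extracts at the higher doses (vertical axis, Guibi-tang 500 minus Aucklandiae Radix 74 µg/mL, log2) against the difference at the low doses (horizontal axis, Guibi-tang 20 minus Aucklandiae Radix 14.8 µg/mL, log2), 1 point a gene of at least 5 CPM; 139 dose-supported genes are purple, 225 other called genes orange and 10229 genes not called grey, and 2 genes lie outside the axes. Most called genes spread along the vertical axis, by which they were chosen, and stay near 0 on the horizontal one. They lie away from the dashed line of equal differences, and AKR1C2, AKR1B10 and ALDH3A1 lie left of 0.

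These counts depended on which libraries were fitted. With the left-out Saposhnikoviae Radix library kept in the fit, 43 genes differed and 8 were dose-supported, and with a fit of the 4 groups alone the counts were 229 and 67. Leaving out Guibi-tang 500 µg/mL replicate 2 or 3 gave 249 or 257 differing genes, leaving out Aucklandiae Radix 74 µg/mL replicate 2 or 3 gave 178 or 157, and the dose-supported count was 82 or 72 without those herb libraries and 85 without Aucklandiae Radix 14.8 µg/mL replicate 3. Of the 24 genes of at least 5 CPM with the largest dose-supported differences, 13 stayed called with the Saposhnikoviae Radix library kept, and AKR1C1, AKR1C2, AKR1C3, ALDH1A3, GPAT3, CEACAM5, NOX1, AKAP7, POU2AF3, LINC00261 and QPRT did not, at unchanged sign. At the low doses 102 genes were called when genes of low count were not filtered out.

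How far the formula resembles the herb was measured from the dose steps, which share no library and no set. The formula's step was a 25-fold increase in dose and the herb's a 5-fold one. The step to Guibi-tang 500 µg/mL called 3042 genes (17.9%), 1501 higher (8.84%) and 1541 lower (9.08%) than at 20 µg/mL, and the step to Aucklandiae Radix 74 µg/mL called 442 (2.6%), 256 higher (1.51%) and 186 lower (1.1%) than at 14.8 µg/mL. Of the 442 herb genes, 411 were called in the formula in the same direction (93.0% of the herb's calls and 13.5% of the formula's), and 1 in the opposite direction, the squalene epoxidase gene SQLE. The steps had the same sign in 437 of the 442 (98.9%), against 66.4% of all genes tested. Among the 442, 348 moved further with the formula (78.7%), and the median ratio of the formula's step to the herb's was 1.42 (quartiles 1.07 and 1.77). These genes were chosen by the herb's step, so the ratio depends in part on the choice. Over the 3042 genes chosen by the formula's step, the median ratio of the herb's step to the formula's was 0.44 (quartiles 0.22 and 0.65). Across these 442 genes, which are not independent replicates, the steps correlated at r = 0.922, across the 10593 genes of at least 5 CPM at 0.702 and across all genes tested at 0.160. The herb-step count was 50 with the left-out library kept, 269 in the fit of 4 groups, 186 or 214 without Aucklandiae Radix 74 µg/mL replicate 2 or 3, and 197 or 239 without Aucklandiae Radix 14.8 µg/mL replicate 2 or 3.

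The genes that led the steps overlapped in part: 5 of the 8 largest rises and 3 of the 8 largest falls were shared between the extracts. LINC00261, a long non-coding RNA next to FOXA2 (ENSG00000259974, chr20:22547671-22578642), had 3.51, 3.81 and 3.27 CPM in Guibi-tang 500 µg/mL and 14.4, 15.8 and 13.9 CPM in Guibi-tang 20 µg/mL. The same RNA had 5.63 and 5.71 CPM in Aucklandiae Radix 74 µg/mL and 15.2 and 13.6 CPM in Aucklandiae Radix 14.8 µg/mL. Each extract's higher dose lay below its own low dose in every library, by 2.06 (log2) for Guibi-tang and 1.35 for Aucklandiae Radix. SLC38A11, an amino acid transporter, and RASL11A, a small GTPase, followed it in both extracts: SLC38A11 fell by 1.68 (log2) with the formula and 1.06 with the herb, and RASL11A by 1.53 with the formula and 0.99 with the herb. The shared rises were AKR1C1, AKR1C2, ALDH3A1, AHNAK2 and SDCBP2. AHNAK2, a very large protein beneath the cell membrane, rose by 1.63 ± 0.11 SE (log2) with Guibi-tang and by 1.11 ± 0.14 with Aucklandiae Radix. SDCBP2, a syntenin family member, rose by 1.54 with the formula and 0.93 with the herb, and EMP1, an epithelial membrane protein, by 1.32 with the formula and 0.82 with the herb.

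Other leading genes included some whose step difference did not pass. SCEL, a precursor of the cornified envelope, had 23, 22.1 and 21.9 CPM in Guibi-tang 500 µg/mL and 21.6 and 22.2 CPM in Aucklandiae Radix 74 µg/mL, and these libraries overlapped. Its steps were 1.06 ± 0.09 SE (log2) with Guibi-tang and 1.08 ± 0.11 with Aucklandiae Radix, and their difference was -0.01 ± 0.14. DUSP5, a phosphatase that switches off ERK in the nucleus, rose by 0.92 with the formula and 0.87 with the herb, with a difference of 0.05 ± 0.18 SE. RARRES1, a retinoid-responsive gene, fell by 0.89 with the formula and 0.71 with the herb. TFF3, a goblet cell peptide, fell by 0.83 with the formula and 0.86 with the herb. TFF3 is named as a list member and is not a leading gene of either step by the rule used here. The secreted lectin REG4, of enteroendocrine and goblet cells, fell by 1.24 with the formula and 0.80 with the herb, MYCL, a MYC family factor, by 0.97 with the formula and 0.72 with the herb, and LOXL1, which cross-links elastin, by 1.22 with the formula and 0.71 with the herb. KCNJ3, a potassium channel subunit among the 8 largest falls of the formula, fell by 1.26 with the formula and 0.51 with the herb, and here the step difference passed (-0.75 ± 0.16 SE). A step difference that does not pass does not show that the steps were equal.

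**Figure D2:**
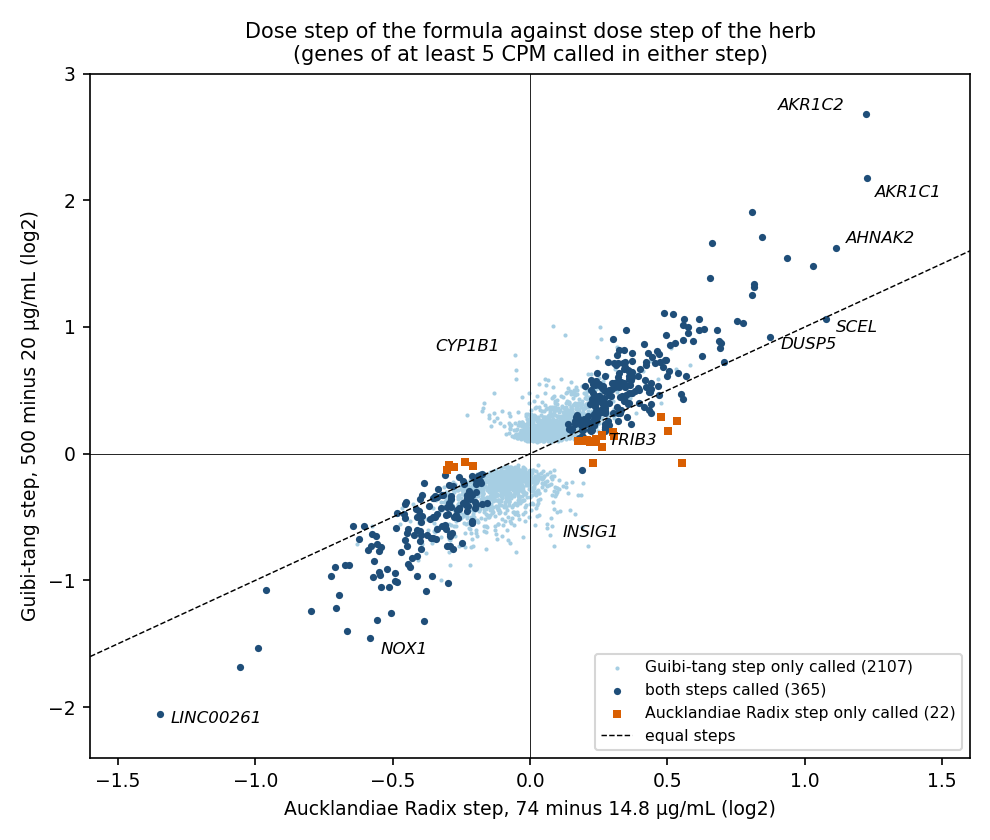
Dose step of Guibi-tang (vertical axis, 500 minus 20 µg/mL, log2) against dose step of Aucklandiae Radix (horizontal axis, 74 minus 14.8 µg/mL, log2), 1 point a gene of at least 5 CPM called in either step. The 365 genes called in both are dark, the 2107 called in Guibi-tang only light and the 22 called in Aucklandiae Radix only orange; most dark points lie above the dashed line of equal steps on the right and below it on the left.

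NRF2 targets rose with both extracts and further with the formula. Of 26 listed targets all tested, 26 rose and 0 fell in the Guibi-tang step (8.84% of all genes rose), with a median of 0.75 (log2), and 19 rose and 0 fell in the Aucklandiae Radix step (1.51% of all genes rose), with a median of 0.33; over all genes tested both medians were 0.00. Between the extracts at the higher doses 14 were higher with Guibi-tang (1.23% of all genes) and 0 lower, with a median of 0.24 against 0.00 over all genes tested, and 13 of the 14 were dose-supported; SLC7A11 was the exception. With the Saposhnikoviae Radix library kept 3 of the 26 were called, and all 26 differences were above 0 under every alternative. The step difference passed for 16 of the 26, all upward (0.512% of all genes). At the low doses 2 of the 26 were lower with Guibi-tang (AKR1C2 and AKR1B10, against 0.0177% of all genes) and 0 higher. There 24 of the 26 differences were below 0, with a median of -0.11. Low-dose differences below 0 enlarge the step differences here, whose median was 0.36 against 0.24 for the differences at the higher doses.

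The aldo-keto reductases were among the largest differences of the NRF2 list. These enzymes reduce steroids, retinal and reactive aldehydes with NADPH. AKR1C2 (ENSG00000151632, chr10:4987400-5018031) had 109.6, 116 and 120.1 CPM in Guibi-tang 500 µg/mL against 62 and 58.4 CPM in Aucklandiae Radix 74 µg/mL. Its low-dose levels were 16.1, 17.8 and 20.2 CPM with Guibi-tang and 27.9 and 23.8 CPM with Aucklandiae Radix. The order of the extracts was thus opposite at the low and the higher doses, with no overlap in either pair. AKR1C2 was 1.91-fold higher with the formula (log2 0.94 ± 0.08 SE, adjusted p = 4.39e-12, edgeR), after a dose step of 2.68 with Guibi-tang and 1.22 with Aucklandiae Radix. AKR1B10 had 386, 438 and 428 CPM in Guibi-tang 500 µg/mL against 254 and 241 CPM in Aucklandiae Radix 74 µg/mL, 1.69-fold higher with Guibi-tang (log2 0.75 ± 0.05 SE, adjusted p = 4.41e-14, edgeR). AKR1C3 was higher by 0.68 ± 0.08 SE (log2) and AKR1C1 by 0.59 ± 0.09. The AKR1C genes are close copies on chromosome 10 and the estimation of counts can divide reads between them, so the split among AKR1C1, AKR1C2 and AKR1C3 is uncertain.

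HMOX1, which degrades heme (ENSG00000100292, chr22:35380361-35394214), differed between the extracts in another way: the herb's step did not pass. It had 19.6, 21.6 and 20.4 CPM in Guibi-tang 500 µg/mL against 12.8 and 12.7 CPM in Aucklandiae Radix 74 µg/mL. With the low doses it had 12.2, 10.2 and 9.64 CPM with Guibi-tang and 11.1 and 12.1 CPM with Aucklandiae Radix. The Guibi-tang 500 µg/mL libraries lay above all the others of the 4 groups (1.62-fold above the herb; log2 0.69 ± 0.08 SE, adjusted p = 1.08e-07, edgeR). The Aucklandiae Radix step was 0.13 ± 0.09 SE. With Aucklandiae Radix 370 µg/mL HMOX1 reached 65.7 and 59.4 CPM.

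Glutathione and thioredoxin genes differed less. GCLM, the modifier subunit of glutamate-cysteine ligase, which limits glutathione production, had 106, 110.2 and 115 CPM in Guibi-tang 500 µg/mL against 78.7 and 78.2 CPM in Aucklandiae Radix 74 µg/mL (log2 0.49 ± 0.07 SE, adjusted p = 1.26e-05, edgeR). Its catalytic partner GCLC was higher by 0.40 ± 0.05 SE, the cystine importer SLC7A11 by 0.50 ± 0.12, its partner subunit SLC3A2 by 0.34 ± 0.06, and TXNRD1, which reduces thioredoxin, by 0.39 ± 0.04 (log2). SRXN1, which repairs peroxiredoxins, was higher by 0.35, OSGIN1, an oxidative-stress growth inhibitor, by 0.42, GSR, which regenerates glutathione, by 0.24, UGDH, which makes UDP-glucuronate, by 0.25 and the quinone reductase NQO1 by 0.18. The autophagy receptor SQSTM1, which also ties up KEAP1, was higher by 0.40 ± 0.05 SE and dose-supported. Genes for NADPH supply and iron storage did not pass between the extracts, although PGD, TKT, ME1, FTL and FTH1 rose with both and TALDO1 with the formula. The ferritin light chain FTL rose by 0.98 with the formula and 0.63 with the herb and differed by 0.09 ± 0.06. Of the 12 targets that did not pass, FTL and ME1 were among those with a step difference that passed.

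The letters TGACNNNGC, the core of the element that NRF2 binds with small MAF proteins, were looked for on both strands in promoter windows of 300 bases from RefSeq (GRCh38.p14; 250 before and 50 after the start). They occur in 5 of the 18 NRF2 targets with a window (27.8%), in 6 of the 60 dose-supported higher genes with one (10%) and in 13.3% of 35116 windows of all genes. Windows of GCLM (chr1:93909381-93909680, minus strand) and TXNRD1 (chr12:104215529-104215828, plus strand) are shown because their genes rose with both extracts and hold the letters, which stand in capitals in either orientation.
GCLM: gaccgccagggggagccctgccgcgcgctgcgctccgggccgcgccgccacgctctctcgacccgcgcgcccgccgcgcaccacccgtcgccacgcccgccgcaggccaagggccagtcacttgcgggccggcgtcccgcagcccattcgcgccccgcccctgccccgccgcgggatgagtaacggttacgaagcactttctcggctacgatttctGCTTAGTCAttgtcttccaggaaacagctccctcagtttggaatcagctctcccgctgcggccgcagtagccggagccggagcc
TXNRD1: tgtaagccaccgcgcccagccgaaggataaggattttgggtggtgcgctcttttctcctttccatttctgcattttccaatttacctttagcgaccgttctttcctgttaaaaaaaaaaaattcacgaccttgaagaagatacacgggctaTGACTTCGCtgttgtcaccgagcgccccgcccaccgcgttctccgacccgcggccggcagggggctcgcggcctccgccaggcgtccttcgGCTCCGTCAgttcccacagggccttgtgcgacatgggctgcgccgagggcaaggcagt
GCLM holds 1 match and TXNRD1 2. A match is a string of letters and not a measured binding site.

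**Figure D3:**
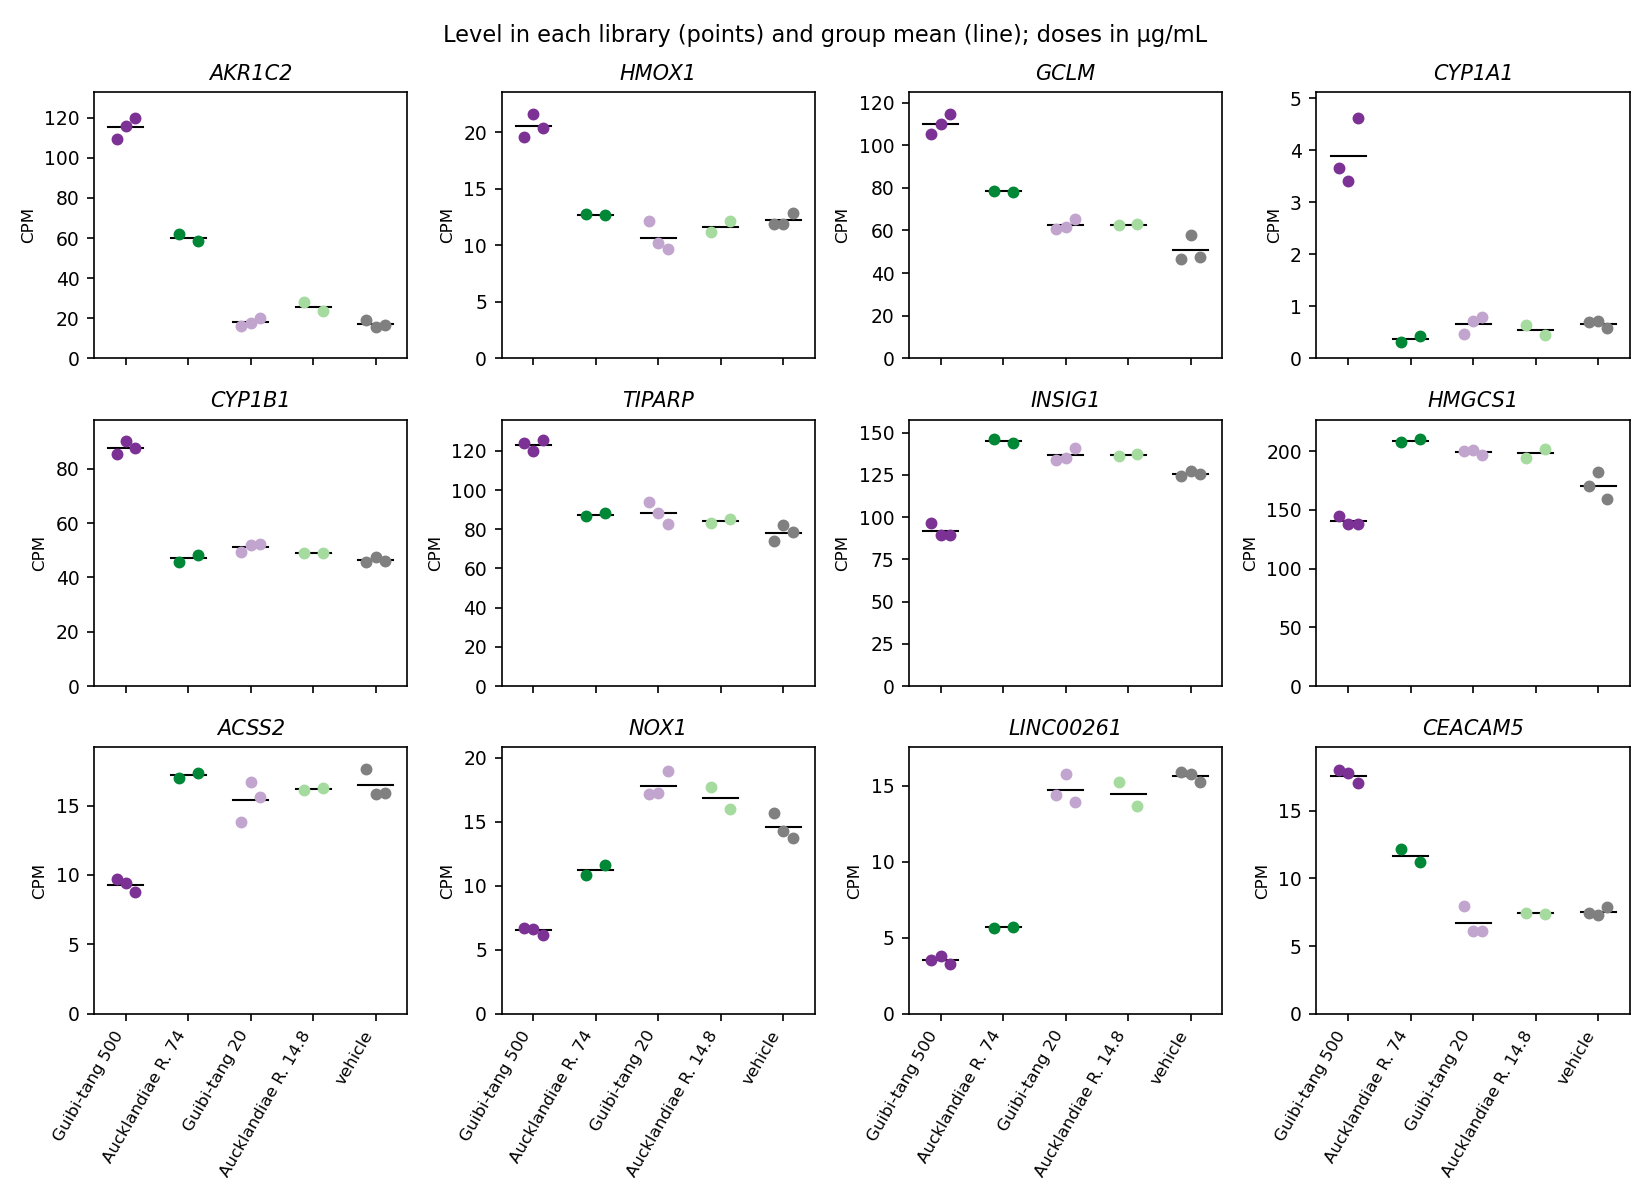
Level of 12 genes in CPM (vertical axes, starting at 0) in each library of Guibi-tang 500 µg/mL, Aucklandiae Radix 74 µg/mL, Guibi-tang 20 µg/mL, Aucklandiae Radix 14.8 µg/mL and the vehicle; points are libraries and lines group means. In all 12 genes the Guibi-tang 500 µg/mL libraries lie clear of the Aucklandiae Radix 74 µg/mL libraries, while the low-dose libraries of both extracts lie closer together; in AKR1C2 the low-dose order is the opposite one.

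Of the 4 AHR targets that were higher with the formula, 3 had moved from the low dose with the formula alone by the test. CYP1A1, the enzyme most used as a readout of AHR (ENSG00000140465, chr15:74719542-74725610), had 3.66, 3.4 and 4.61 CPM in Guibi-tang 500 µg/mL against 0.322 and 0.436 CPM in Aucklandiae Radix 74 µg/mL. It had 0.466, 0.721 and 0.794 CPM in Guibi-tang 20 µg/mL, 0.651 and 0.453 CPM in Aucklandiae Radix 14.8 µg/mL and 0.689, 0.713 and 0.59 CPM in the vehicle. Among these libraries those of Guibi-tang 500 µg/mL alone stood above 1 CPM, and the gene was 10.1-fold higher with the formula than with the herb (log2 3.34 ± 0.28 SE, adjusted p = 1.26e-11, edgeR); as it lies below 5 CPM it is named as a list member. The Guibi-tang step was 2.56 ± 0.21 SE and the Aucklandiae Radix step -0.53 ± 0.39, which did not pass.

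CYP1B1, the related enzyme that oxidises estrogens and polycyclic hydrocarbons (ENSG00000138061, chr2:38066973-38109902), had 85.3, 90.3 and 87.7 CPM in Guibi-tang 500 µg/mL against 45.7 and 48.3 CPM in Aucklandiae Radix 74 µg/mL. The low doses gave 49.5, 51.8 and 52.2 CPM with Guibi-tang and 48.8 and 48.9 CPM with Aucklandiae Radix. The formula's libraries lay alone at the top (1.87-fold; log2 0.90 ± 0.05 SE, adjusted p = 7.49e-16, edgeR), and the herb's step was -0.06 ± 0.06 SE. TIPARP had 124, 120.2 and 126 CPM in Guibi-tang 500 µg/mL against 86.7 and 88.1 CPM in Aucklandiae Radix 74 µg/mL (log2 0.50 ± 0.07 SE, adjusted p = 2.17e-06, edgeR), with steps of 0.48 with the formula and 0.06 with the herb. ALDH3A1, an aldehyde dehydrogenase that AHR and NRF2 both control, had 98.4, 98 and 98.6 CPM in Guibi-tang 500 µg/mL against 70.6 and 70.3 CPM in Aucklandiae Radix 74 µg/mL and differed by 0.48 ± 0.04 SE, but here both extracts rose, by 1.71 with the formula and 0.84 with the herb. Of 8 AHR-list genes tested, 4 were higher with the formula (1.23% of all genes), 0 lower, all 4 dose-supported (median 0.30), and 2 were called with the Saposhnikoviae Radix library kept. The other four, AHR itself, its repressor AHRR, NFE2L2 (the NRF2 gene) and UGT1A6, differed by -0.03 to 0.12. UGT1A1 and UGT1A10, glucuronosyltransferases that share their downstream exons with UGT1A6, were higher by 0.23 and 0.21, and sharing of exons makes the split among UGT1A genes uncertain.

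The core GCGTG, to which AHR and its partner ARNT bind, stands in 6 of the 7 AHR-list genes with a window (85.7%), against 36.5% of all windows, 45% of the dose-supported higher genes and 41.4% of the lower ones. It stands as often in the cholesterol-synthesis list, 15 of 18 windows (83.3%), and in 10 of 18 of the NRF2 list (55.6%), so it is not particular to the AHR list. CYP1A1 (chr15:74725479-74725778, minus strand) and TIPARP (chr3:156674340-156674639, plus strand) are printed with the core in capitals in either orientation. Both are AHR targets that rose with the formula while the herb's step did not pass. CYP1B1 moved likewise but had no window.
CYP1A1: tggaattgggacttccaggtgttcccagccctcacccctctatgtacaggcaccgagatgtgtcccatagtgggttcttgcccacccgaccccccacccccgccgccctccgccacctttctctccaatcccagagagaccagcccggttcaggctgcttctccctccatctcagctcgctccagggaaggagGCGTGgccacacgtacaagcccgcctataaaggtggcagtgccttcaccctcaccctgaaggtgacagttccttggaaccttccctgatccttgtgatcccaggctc
TIPARP: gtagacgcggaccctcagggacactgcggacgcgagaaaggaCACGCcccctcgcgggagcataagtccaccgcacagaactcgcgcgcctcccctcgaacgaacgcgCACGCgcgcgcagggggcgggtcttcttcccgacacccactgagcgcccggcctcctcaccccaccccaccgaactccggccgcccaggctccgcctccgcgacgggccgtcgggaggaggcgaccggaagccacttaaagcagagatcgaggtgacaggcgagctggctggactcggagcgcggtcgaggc
The single match of CYP1A1 begins 57 bases before the start, and TIPARP has 2 matches.

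Genes of cholesterol synthesis were lower with the formula than with the herb almost throughout, and the list medians of the extracts' dose steps had opposite signs. Of 25 listed genes, all tested, 21 were lower in Guibi-tang 500 µg/mL than in Aucklandiae Radix 74 µg/mL (1.12% of all genes) and 0 higher, with a median of -0.31 (log2) against 0.00 over all genes tested; 14 were dose-supported, and 4 were called with the Saposhnikoviae Radix library kept. In the Guibi-tang step 20 fell, against 9.08% of all genes, and 0 rose (median -0.23). In the Aucklandiae Radix step 2 rose, SQLE and CYP51A1, against 1.51% of all genes, and 0 fell (median 0.08, above 0 in 19 of 25). At the low doses 0 of 25 differed and the median was 0.00. PMVK, at 0.10 ± 0.09 SE, and STARD4, at -0.29 ± 0.11 SE, were among those that did not pass between the extracts.

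Enzymes from the start of the pathway to the sterol ring were among them. HMGCS1, which makes HMG-CoA (ENSG00000112972, chr5:43289395-43313512), had 144, 138 and 138 CPM in Guibi-tang 500 µg/mL against 208 and 210.3 CPM in Aucklandiae Radix 74 µg/mL. Its low-dose levels were 199.8, 201 and 197 CPM with Guibi-tang and 194 and 202 CPM with Aucklandiae Radix. Only the formula's higher dose lay apart, at the bottom (1.49-fold lower than the herb; log2 -0.58 ± 0.05 SE, adjusted p = 3.11e-12, edgeR). The mevalonate kinase MVK differed by -0.52 ± 0.07 SE, the decarboxylase MVD by -0.42 ± 0.07, the isomerase IDI1 by -0.39 ± 0.06 and lanosterol synthase LSS by -0.44 ± 0.04.

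SQLE, which oxidises squalene, had 616, 614 and 604 CPM in Guibi-tang 500 µg/mL against 776 and 778 CPM in Aucklandiae Radix 74 µg/mL. Low-dose libraries had 663, 667 and 677 CPM with Guibi-tang and 674 and 689 CPM with Aucklandiae Radix. The formula's libraries lay below all low-dose libraries and the herb's above them: SQLE fell by 0.13 with Guibi-tang (adjusted p = 6.06e-04) and rose by 0.19 with Aucklandiae Radix (adjusted p = 3.57e-04, both edgeR). CYP51A1, lanosterol demethylase, rose by 0.23 with the herb and had a step of -0.07 ± 0.04 SE with the formula that did not pass.

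The regulator INSIG1 was lower with the formula too. It (ENSG00000186480, chr7:155297776-155310235) had 96.7, 89.4 and 89.5 CPM in Guibi-tang 500 µg/mL against 146 and 144 CPM in Aucklandiae Radix 74 µg/mL (1.58-fold lower; log2 -0.66 ± 0.05 SE, adjusted p = 1.16e-13, edgeR). The herb's step was 0.08 ± 0.05 SE and did not pass.

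Lipid genes outside sterol synthesis were affected in part. ACSS2, which turns acetate into acetyl-CoA (ENSG00000131069, chr20:34872146-34927962), had the largest negative difference among dose-supported genes of at least 5 CPM, with 9.67, 9.4 and 8.76 CPM in Guibi-tang 500 µg/mL against 17 and 17.4 CPM in Aucklandiae Radix 74 µg/mL (1.85-fold lower; log2 -0.89 ± 0.09 SE, adjusted p = 6.83e-10, edgeR). LPIN1, a phosphatidate phosphatase, had 15.7, 15 and 15 CPM in Guibi-tang 500 µg/mL against 23.9 and 23.9 CPM in Aucklandiae Radix 74 µg/mL and was lower by 0.65 (log2). The libraries of both genes did not overlap, and neither herb step passed. In the fatty acid synthesis list 3 of 11 tested were lower (1.12% of all genes) and 0 higher: ACSS2, the desaturase SCD at -0.36 ± 0.05 SE and the citrate lyase ACLY at -0.17 ± 0.04; FASN, fatty acid synthase, was at -0.15 and did not pass. GPAT3, which starts triglyceride synthesis, was higher with the formula, with 34.1, 36.1 and 37.2 CPM in Guibi-tang 500 µg/mL against 21.4 and 23.4 CPM in Aucklandiae Radix 74 µg/mL (log2 0.68 ± 0.08 SE, adjusted p = 3.56e-07, edgeR). In the list of PPAR targets and fat oxidation 3 of 14 were higher (1.23% of all genes), PDK4, CPT1A and ACADVL, none of them dose-supported.

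**Figure D4:**
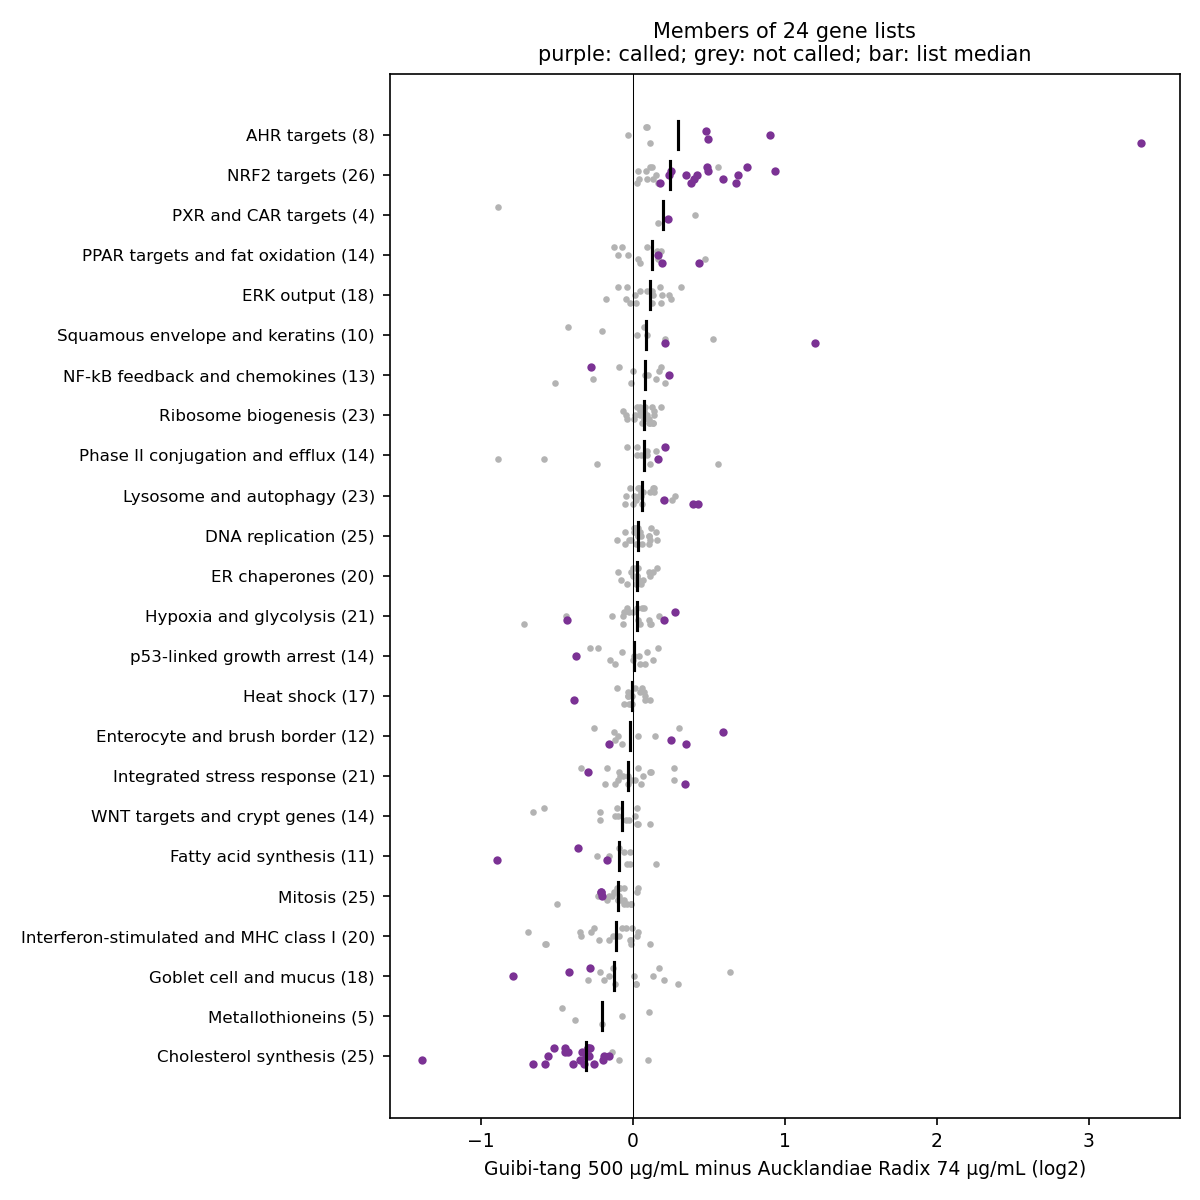
Difference between Guibi-tang 500 and Aucklandiae Radix 74 µg/mL (horizontal axis, log2) of each tested member of 24 gene lists, ordered by list median; purple points passed the test, grey ones did not, bars are medians and numbers in brackets count the members tested. Cholesterol synthesis lies furthest left with 21 of 25 members purple, and the AHR and NRF2 lists furthest right with 4 of 8 and 14 of 26.

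Other genes with the largest dose-supported differences fell in several classes. SLC22A3, a transporter of organic cations including monoamines (ENSG00000146477, chr6:160348268-160452581), led the genes of at least 5 CPM with 13.8, 13.5 and 13.9 CPM in Guibi-tang 500 µg/mL against 7.32 and 5.83 CPM in Aucklandiae Radix 74 µg/mL (2.09-fold; log2 1.06 ± 0.10 SE, adjusted p = 8.84e-10, edgeR). The low doses gave 6.95, 6.85 and 6.71 CPM with Guibi-tang and 6.06 and 6.35 CPM with Aucklandiae Radix, and the herb's step was 0.08 ± 0.12 SE. PIM1, a serine/threonine kinase that promotes survival, was higher by 0.67 ± 0.11 SE, ALDH1A3, which makes retinoic acid, by 0.62 ± 0.07 and ADGRF1, an adhesion G protein-coupled receptor, by 0.61 ± 0.06 (log2). Among SLC22A3, PIM1, ALDH1A3 and ADGRF1, the herb's step passed in ADGRF1 only, at 0.30. CEACAM5, the carcinoembryonic antigen, had 18, 17.8 and 17.1 CPM in Guibi-tang 500 µg/mL against 12.2 and 11.2 CPM in Aucklandiae Radix 74 µg/mL (log2 0.59 ± 0.09 SE, adjusted p = 1.60e-05, edgeR), and rose with both extracts, by 1.38 with the formula and 0.65 with the herb.

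Among the lower genes, NOX1, the superoxide-producing oxidase of colon epithelium (ENSG00000007952, chrX:100843324-100874345), had 6.72, 6.63 and 6.18 CPM in Guibi-tang 500 µg/mL against 10.8 and 11.7 CPM in Aucklandiae Radix 74 µg/mL (1.73-fold lower; log2 -0.79 ± 0.11 SE, adjusted p = 1.61e-06, edgeR). The low doses gave 17.2, 17.2 and 19 CPM with Guibi-tang and 17.7 and 16 CPM with Aucklandiae Radix. NOX1 fell with both extracts and further with the formula. The same held for PTPRO, a receptor phosphatase (-0.73 ± 0.08 SE), AKAP7, an anchor of protein kinase A (-0.73 ± 0.14), LINC00261 (-0.68 ± 0.12), QPRT, which makes NAD from quinolinate (-0.66 ± 0.10), and ATP6V1B1, a proton pump subunit (-0.63 ± 0.07). POU2AF3, a coactivator of tuft cell genes, BMP2, a differentiation signal of the crypt axis, and ID2, an inhibitor of helix-loop-helix factors, fell with the formula while the herb's step did not pass; they differed by -0.71 ± 0.11, -0.62 ± 0.12 and -0.59 ± 0.09 SE.

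Differentiation genes shifted only in part. In the list of goblet cell and mucus genes 3 of 18 were lower with the formula than with the herb (1.12% of all genes) and 0 higher (1.23%), all 3 dose-supported. ATOH1, the factor that commits secretory cells, had 1.05, 1.12 and 0.738 CPM in Guibi-tang 500 µg/mL against 1.89 and 1.47 CPM in Aucklandiae Radix 74 µg/mL (log2 -0.79 ± 0.22 SE, adjusted p = 0.0473, edgeR). The membrane mucin MUC13 differed by -0.42 ± 0.06 SE and the mucin-folding AGR2 by -0.28 ± 0.06. In the Guibi-tang step 10 of the 18 fell (9.08% of all genes) and 1 rose, MUC17 (8.84%), and in the Aucklandiae Radix step 4 fell (1.1%) and 0 rose (1.51%). In the enterocyte list 3 of 12 were higher (1.23% of all genes), CEACAM5, CEACAM6 (0.35 ± 0.06) and the keratin KRT20 (0.25 ± 0.05), and 1 lower, the villin VIL1 (-0.16 ± 0.04), all of them dose-supported. HT29 keeps traits of both lineages, and a bulk level cannot tell fewer cells of a kind from less RNA per cell.

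The remaining lists had few or no members past the test between the extracts, which 1.23% of all genes passed upward and 1.12% downward. None of 25 DNA replication genes, 23 ribosome biogenesis genes, 20 ER chaperones, 20 interferon and MHC class I genes, 18 ERK output genes, 14 WNT and crypt genes and 5 metallothioneins was called. Of 25 mitosis genes 3 were lower, KIF20A, NUSAP1 and UBE2C, at -0.21 each (log2), and none was dose-supported. Between the extracts 23 of the 25 lay below 0 and 2 above (median -0.10). At the low doses 22 already lay below 0 and 3 above (median -0.06). In the integrated stress response list SLC3A2 was higher and PHGDH, the entry enzyme of serine synthesis, lower (-0.30 ± 0.07 SE), 2 of 21. Of 21 hypoxia and glycolysis genes the glucose transporter SLC2A1 (0.21 ± 0.04) and hexokinase HK2 (0.28 ± 0.05) were higher and ALDOC lower. Of 23 lysosome and autophagy genes SQSTM1, GLA and FLCN were higher. Of 10 squamous envelope genes SPRR1B and KRT80 were higher, of 17 heat shock genes HSPB1 was lower, of 14 p53-linked genes BTG2 was lower (-0.37 ± 0.06), of 13 NF-kB genes IRF1 was higher and LCN2 lower, of 4 PXR and CAR targets UGT1A1 was higher, and of 14 conjugation and efflux genes UGT1A10 and ABCG2 were higher. In the interferon list 10 of 20 fell in the Guibi-tang step (9.08% of all genes) and 0 in the Aucklandiae Radix step (1.1%), but 0 members passed the test of the step difference.

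The 150 dose-supported genes were chosen by unequal steps, and the directions of those steps are given as a description. Of the 78 higher with the formula, 42 had risen with both extracts and 36 with the formula alone by the test, and 13 had steps of opposite sign. Of the 72 lower, 27 had fallen with both, 43 with the formula alone, and in SQLE and CYP51A1 the herb had risen; 18 had steps of opposite sign. Genes that the herb's step called and the formula's did not in either direction numbered 30. Among these, TRIB3, a pseudokinase of the stress response, rose by 0.24 with the herb and had a step of 0.11 with the formula, TGM2, a transglutaminase, rose by 0.22 with the herb, its formula step being 0.10, and FGF19, an enterohepatic hormone, by 0.50, its formula step being 0.18; TGM2 and FGF19 are named after their values were seen. TGM2 and FGF19 were also lower with the formula in the direct comparison (-0.23 ± 0.04 and -0.37 ± 0.08 SE), as was XRRA1, whereas SNHG7, which fell with the herb only, was higher.

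The herb at 370 µg/mL gives a further point on its dose axis. Its step from 14.8 µg/mL called 9969 genes (58.7%), 5018 higher (29.6%) and 4951 lower (29.2%), and was set beside the formula's step, with which it shares no library. Of the 3042 genes of the Guibi-tang step, 2269 were called in the same direction by the herb at 370 µg/mL (74.6% of the formula's calls and 22.8% of the herb's), 289 in the opposite direction (9.50%) and 484 not at all. Among the 2269, 2112 moved further with the herb, and the median ratio of the herb's step to the formula's was 2.55. Of the 78 genes higher with the formula and dose-supported, 66 rose, 8 fell and 4 (THBS1, ARHGAP26, PTDSS1 and TTC39C) were not called with the herb at 370 µg/mL. Of the 72 lower, 62 fell, 5 rose (CYP51A1, CLIC5, BMP2, STEAP4 and ACSS2) and 5 (SQLE, DENND10, PIK3AP1, SLC6A20 and LINC02983) were not called.

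Single genes did not keep 1 order along the doses. HMOX1 rose by 2.43 (log2) with the herb at 370 µg/mL and by 0.94 with the formula, and AKR1C1 by 3.13 with the herb and 2.18 with the formula. CYP1A1, below 1 CPM at the herb's lower doses, reached 7.45 and 6.81 CPM at 370 µg/mL, above the 3.66, 3.4 and 4.61 CPM of Guibi-tang 500 µg/mL. CYP1B1 fell to 28.9 and 29.8 CPM with the herb at 370 µg/mL, by 0.74 against its low dose (adjusted p = 6.27e-14, edgeR), while it rose by 0.78 with the formula. ALDH3A1 had 33.9 and 31.5 CPM at 370 µg/mL, below the 40.1 and 38.5 CPM of 14.8 µg/mL, and AKR1B10 222 and 228 CPM, a rise of 0.67 against 0.81 at 74 µg/mL. ACSS2 reached 35.2 and 32.1 CPM, a rise of 1.06 where the formula fell by 0.73. Some sterol genes fell in both: HMGCS1 fell by 0.58 with the herb at 370 µg/mL and by 0.51 with the formula, and INSIG1 by 0.71 with the herb and 0.57 with the formula. Over the cholesterol list 17 of 25 fell and 3 rose with the herb at 370 µg/mL, where 29.2% of all genes fell and 29.6% rose. LINC00261 was at 0.183 and 0.217 CPM and NOX1 at 0.438 and 0.694 CPM there.

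**Figure D5:**
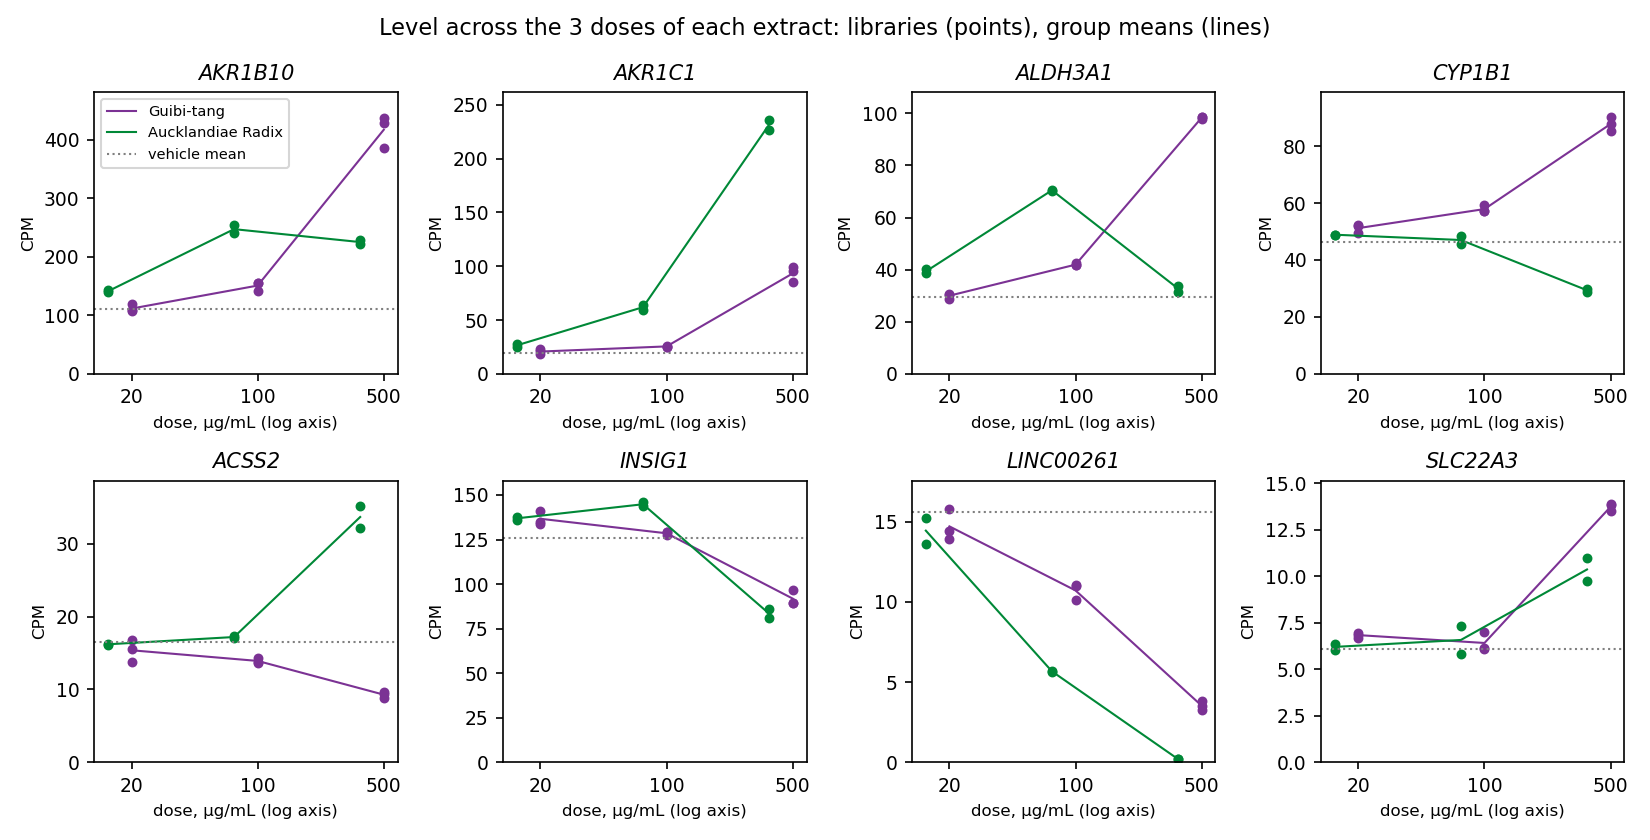
Level of 8 genes in CPM (vertical axes, starting at 0) across the doses of Guibi-tang (20, 100 and 500 µg/mL, purple) and Aucklandiae Radix (14.8, 74 and 370 µg/mL, green) on a log dose axis; points are libraries, lines join group means and the dotted line is the vehicle mean. AKR1C1 and LINC00261 move one way with both extracts, while CYP1B1 and ACSS2 move opposite ways at the top doses and the herb's libraries of ALDH3A1 and AKR1B10 lie higher at 74 than at 370 µg/mL.

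The formula's own step from 20 to 100 µg/mL called 20 genes (0.118%), 10 higher (0.0589%) and 10 lower (0.0589%). AKR1C2, AKR1B10, ALDH3A1 and NQO1 rose in it, by 0.51, 0.44, 0.48 and 0.24 (log2), and LINC00261, PTPRO, REG4 and ATP6V1B1 fell, by 0.46, 0.31, 0.41 and 0.27. CYP1A1 had 1.11, 0.945 and 0.697 CPM and CYP1B1 59.3, 57.1 and 57.2 CPM at 100 µg/mL, where their steps did not pass. None of the 25 cholesterol-synthesis genes passed at that dose, with a median of -0.05.

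Polygalae Radix, another herb profiled in the series and in library set 11, gives values for the 150 dose-supported genes from libraries that none of the comparisons above tested, although they entered the common fit. Its step from 15.2 to 76 µg/mL (2 libraries a dose) called 840 genes (4.95%), 482 higher (2.84%) and 358 lower (2.11%), and its step from 15.2 to 380 µg/mL 4984 (29.4%), 2263 higher (13.3%) and 2721 lower (16%). Of the 78 genes higher with Guibi-tang, 13 rose and 9 fell at 76 µg/mL, and 40 rose and 15 fell at 380 µg/mL. Of the 72 lower, 11 rose and 12 fell at 76 µg/mL, and 3 rose and 49 fell at 380 µg/mL. HMOX1 had steps of 0.65 ± 0.09 and 0.87 ± 0.09 SE (log2) at 76 and 380 µg/mL, CYP1B1 of -0.09 ± 0.06 and -0.09 ± 0.06, and ACSS2 of 0.47 ± 0.09 and -0.15 ± 0.09.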

How the data were processed

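RNA of 60 libraries was sequenced as 100 bp paired-end reads from a directional kit, from RNA with an integrity number above 7, per the labels' protocols. The deposited values are expected counts per gene from the authors. The submitters' processing notes name STAR 2.7.3a, RSEM 1.3.3, Trim Galore 0.6.5 and FastQC 0.11.9, with hg38 and GRCh38 as the build. Which annotation and strand setting were used is not given in the sources used here, so overlapping and antisense genes may share reads. In the file 10% of the values are not whole, and all were rounded. Coordinates are those of GENCODE 29 (GRCh38), matched by gene ID for 99.3% of genes tested.

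Genes were filtered by filterByExpr (16978 kept of 60675), scaled by TMM and fitted with edgeR 4.0.16 in R 4.3.3 (glmQLFit, 1 coefficient a group, 56 libraries in 22 groups, 34 residual degrees of freedom). Groups of 1 library and Saposhnikoviae Radix 20 µg/mL replicate 2 stayed out. Tests were two-sided quasi-likelihood tests with Benjamini-Hochberg adjustment over all genes, called at 0.05; the step test is an interaction contrast. Standard errors are the log2 fold change divided by the square root of F. The method was tested on simulated data. A chi-square test of counts found no replicate pair that agreed within sampling noise. CPM values are per library and serve to compare groups within a gene.

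The members, the 24 gene lists and the rules were chosen with earlier results of these data known. Genes named are, at a mean of at least 5 CPM, the 12 highest and 12 lowest dose-supported differences and the 8 highest and 8 lowest calls of each dose step, besides members of the lists; some of these genes are not reported here. Alternatives were DESeq2 1.42.0, RLE scaling, no filter, the left-out library kept, a fit of the 4 groups alone, each library left out, and a replicate block.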

Additional observations from a re-analysis of the deposited data

Results flagged for a closer look

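The dose step from the low dose differed between the extracts, by the interaction test, for all 24 genes of at least 5 CPM named for their dose-supported difference; that test is part of the rule that chose them. The step difference (Guibi-tang 500 minus 20 µg/mL less Aucklandiae Radix 74 minus 14.8 µg/mL, log2) is given for each. Among the reductases it was 1.46 for AKR1C2, 1.09 for AKR1B10, 1.00 for AKR1C3 and 0.95 for AKR1C1, in all of which both extracts' steps were upward. It was 0.92 for the cation transporter SLC22A3, 0.83 for CYP1B1, 0.81 for HMOX1, 0.75 for the kinase PIM1 and 0.49 for ALDH1A3, with a herb step that did not pass. It was 0.73 for CEACAM5, 0.63 for GPAT3 and 0.61 for ADGRF1, which rose with both.

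Below 0, it was -0.93 for PTPRO, -0.87 for NOX1, -0.76 for QPRT, -0.73 for AKAP7, -0.72 for ATP6V1B1 and -0.71 for LINC00261, which fell with both extracts. It was -0.81 for ACSS2, -0.77 for BMP2, -0.72 for POU2AF3, -0.65 for INSIG1, -0.64 for LPIN1 and -0.60 for ID2, with a herb step that did not pass.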

How the results depend on the processing

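Counts are of called genes, for the comparison of Guibi-tang 500 with Aucklandiae Radix 74 µg/mL (399), the low doses (3), the difference of the dose steps (165), the Guibi-tang step (3042), the Aucklandiae Radix step (442) and the dose-supported genes (150), in this order. With Saposhnikoviae Radix 20 µg/mL replicate 2 kept they were 43, 0, 8, 797, 50 and 8. In the fit of the 4 groups alone they were 229, 1, 72, 2807, 269 and 67. With no low-count filter, which more than doubles the genes tested, the low-dose count was 102 and the step-difference count 250, and the other four moved by less than 1.5 times; the cause was not tested. RLE scaling and DESeq2 moved no count by as much as 1.5 times (400 and 458 for the first comparison). Leaving out 1 library at a time gave 157 to 432, 2 to 4, 76 to 165, 2311 to 2957, 186 to 474 and 72 to 148; a group left with 1 library is assumed to vary like the others. For the 24 largest dose-supported genes of at least 5 CPM the difference between the higher doses, the only single-gene value recomputed, kept its sign, and 11 lost their call in 1 of the 16 alternatives, the fit with that library kept. The share of herb-step calls that the formula's step called the same way ranged from 80.3% with no filter to 100% of 50 genes with that library kept. Same-numbered replicates of Guibi-tang 500 and 20 µg/mL deviated with r of 0.15, -0.10 and -0.08, and those of Aucklandiae Radix with 0.03. Between the extracts r was -0.03 and -0.02 at the higher doses and 0.11 and 0.14 at the low doses. With 2 or 3 libraries a group these values cannot settle whether the numbers pair the libraries. A replicate block gave 432, 4, 205, 3477, 569 and 176. Pairs of herb libraries (2 a group) limit the spread estimate of each herb step, and genes under about 1 CPM rest on few counts.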

Other observations

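Of the 8 genes higher with Guibi-tang that fell with Aucklandiae Radix 370 µg/mL, the transporters SLC38A4 and ABCG2 fell by 4.49 and 0.92 (log2), the glucuronosyltransferases UGT1A1 and UGT1A10 by 1.89 and 1.66, the water channel AQP3 by 0.61 and ZNF488, a transcriptional regulator, by 0.49, besides CYP1B1 and ALDH3A1. SLC38A4, which carries neutral amino acids, had 5.46, 4.88 and 5.21 CPM in Guibi-tang 500 µg/mL against 2.86 and 3.41 CPM in Aucklandiae Radix 74 µg/mL, and 0.146 and 0.174 CPM in Aucklandiae Radix 370 µg/mL. In AQP3 the levels were 147, 161 and 148 CPM in Guibi-tang 500 µg/mL, 104 and 105 CPM in Aucklandiae Radix 74 µg/mL and 64.7 and 66.2 CPM in Aucklandiae Radix 370 µg/mL. Both genes were above the herb with the formula and lowest with the herb's top dose.

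Proliferation genes, few of which differed between Guibi-tang 500 and Aucklandiae Radix 74 µg/mL, mostly fell at the herb's top dose: with Aucklandiae Radix 370 µg/mL 24 of 25 DNA replication genes and 25 of 25 mitosis genes fell and 0 rose (medians -0.97 and -0.96, log2), where 29.2% of all genes fell. In the Guibi-tang step, where 8.84% of all genes rose and 9.08% fell, 4 rose and 1 fell of the DNA replication genes and 1 rose and 0 fell of the mitosis genes. Of 10 squamous envelope genes 8 rose with Aucklandiae Radix 370 µg/mL (29.6% of all genes) and 3 with Guibi-tang 500 µg/mL (8.84%).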
